A study of Mus musculus with 22 samples.

Results

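At 6 weeks after contusion, the genes called higher in wild-type (WT) spinal cord than in naive WT cord were led by receptors, chemokines and enzymes of phagocytes, while a smaller set, with enzymes of cholesterol synthesis among it, was lower. The comparison took in every feature of the array, 43379 probes, of which 33653 carry 1 gene symbol. These stand for 19087 genes, with the probe of the lowest number standing for each gene. The 2 groups were WT mice 6 weeks after injury (n = 3) and naive WT mice (n = 3), together 6 of the 23 mice on the 21 arrays used. All were adult females of 3 to 4 months on a C57BL/6 background and littermates of the GFAP-IκBα-dn (IκBα-dn) mice. The labels give this 1 age for every group, do not say whether it was the age at injury or at tissue collection, and name no sham operation for naive mice. The other groups on the arrays were WT mice at 3 days (n = 3) and 3 weeks (n = 2) and IκBα-dn mice that were naive or at 3 days, 3 weeks and 6 weeks (n = 3 each). In IκBα-dn mice the astrocyte promoter GFAP drives a dominant-negative form of IκBα, which blocks NF-κB in these cells, and WT mice lack this transgene.

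RNA of the injured segment or of the matching naive segment was labelled with Cy5 in 1 mouse and with Cy3 in another, and each array gave the log2 ratio of the pair. WT mice of 6 weeks were on 5 arrays and naive WT mice on 6, with 1 array holding both. The difference between the groups was therefore fitted in limma over all 21 arrays, which are joined through shared mice or, where sets of arrays share none, only through their groups, and rests in part on arrays with IκBα-dn mice. Single mice show in 3 values: the direct array (mouse 1 of 6 weeks against naive mouse 3), a chain of 3 arrays (mouse 3 of 6 weeks to naive mouse 1, over IκBα-dn mice) and a chain of 7 other arrays between the same mice as on the direct array. Mouse 2 of 6 weeks and naive mouse 2 are tied to no mouse of the other group in this way. Sums around closed loops of 4 or 8 arrays, which are 0 without error, had SDs of 0.517, 0.586 and 0.634 over probes, so 1 linked value carries more error than the fit, whose median standard error (SE) was 0.187. The array ratios give differences and no levels, so the presence of spinal cord markers could not be read from them. In this bulk tissue, more cells of a type and more RNA per cell cannot be told apart.

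Contusion kills cells at the lesion and opens the blood-spinal cord barrier. Microglia, the resident phagocytes of the cord, and macrophages that enter from the blood then clear myelin and other debris, and both can stay at the lesion for months. Oligodendrocytes make the cholesterol of myelin within the nervous system, while phagocytes that have taken up myelin must store or export its cholesterol.

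At an adjusted p under 0.05 (Benjamini-Hochberg over all probes, two-sided), 313 of 43379 probes were called (0.722%), 274 of them higher (0.632%) and 39 lower (0.0899%) at 6 weeks than in naive cords. By gene, with the 1 probe standing for each, 150 of 19087 were called (0.786%), 135 higher (0.707%) and 15 lower (0.0786%). Any probe was called for 211 genes (1.11%). Igf1 and Vegfa were called only by other probes, Igf1 higher (1.72 to 1.80) and Vegfa lower (−0.65 to −0.52). The log2 differences ran from 0.60 to 3.98 among the higher genes and from −1.19 to −0.48 among the lower ones, and 98 of the higher against 4 of the lower genes differed by more than 2-fold. The median over all genes was −0.01. For 149 of the 150 called genes, all but Cyp7b1, the direct array and both chains had the sign of the fit, and 40.5% of all genes had 1 sign in these 3 values. Those arrays are part of the fit, so this describes the data and adds no evidence. The calls depend on single mice and their arrays. Without mouse 1, 2 or 3 of 6 weeks the 274 higher probes became 6, 25 and 74, and without naive mouse 1, 2 or 3 they became 56, 222 and 10. The 39 lower probes became 0, 0, 3, 1, 15 and 1 in the same fits, though all 150 genes kept their sign in each of them. The fits with 6 and 10 higher probes also lost the direct array, and without that array alone 46 were higher. Only Mmp12, Mamdc2 and Fcrl1 were called whichever of the 6 mice was left out. With 1 dye term per slide 827 probes were higher and 267 lower, while without the 3 arrays that hold both genotypes at 6 weeks 0 were called (the array of both WT groups lies on 1 slide and is the only value within a slide). At an unadjusted p under 0.05, 2402 probes were higher and 2281 lower. By gene, 1158 of 19087 were higher and 852 lower at this threshold, the background for the unadjusted counts of lists below.

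**Figure D1:**
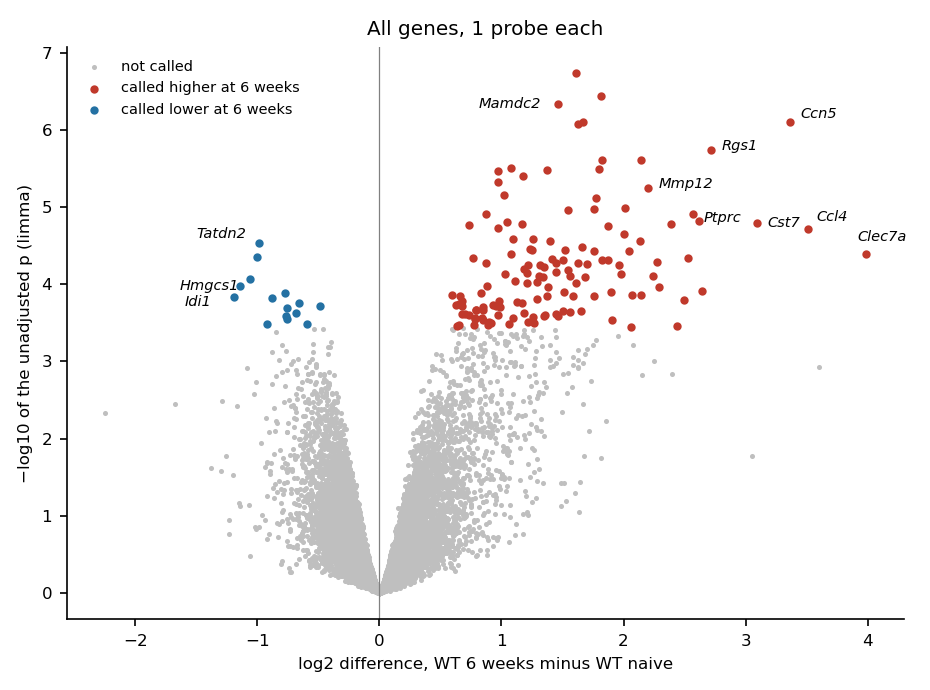
Difference between WT cords at 6 weeks and naive WT cords (log2, x axis) against the unadjusted p from limma (−log10, y axis) for 19087 genes, 1 probe each. The 135 genes called higher reach 3.98 (Clec7a), and the 15 called lower reach −1.19 (Idi1).

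The largest increase was that of Clec7a, which encodes dectin-1, a lectin receptor of phagocytes for fungal glucans that is known as a marker of microglia around lesions. It had 3.79 on the direct array, 3.19 along the chain of 3 arrays and 3.02 along the chain of 7. The fit gave a log2 difference of 3.98 (SE 0.72, adjusted p = 0.0200), and all 3 values lay below the fitted one. Cst7, which encodes cystatin F, an inhibitor of lysosomal cathepsins in immune cells, had 2.42, 3.81 and 2.02 in the same order (fit 3.09, SE 0.51, adjusted p = 0.0134). Rgs1, a regulator of G protein signalling from chemokine receptors, had 2.57, 3.05 and 2.25 (fit 2.72, SE 0.38, adjusted p = 0.00659). Ptprc, which encodes CD45 of all leukocytes, had 2.54, 3.17 and 2.02 (fit 2.57, SE 0.42, adjusted p = 0.0134). The pair of mouse 3 of 6 weeks and naive mouse 1 gave the highest of the 3 values for each of these genes except Clec7a. Of the 13 probes of Ptprc 10 were called, and the lowest had 0.10.

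Mmp12, the macrophage metalloelastase that degrades elastin and other matrix, had 1.44, 2.38 and 2.11 on the direct array and the 2 chains (fit 2.20, SE 0.33, adjusted p = 0.00964), and it was called with any 1 of the 6 mice left out. Promoters of Clec7a and Mmp12 are shown because Clec7a had the largest increase, Mmp12 was called in every fit with 1 mouse left out, and both hold the core GAGGAA bound by PU.1, the ETS factor of the myeloid lineage. They run from 250 bases before to 50 after the start of the gene, 5′ to 3′, from RefSeq on GRCm38.p6, at chr6:129472730-129473029 (minus strand) and chr9:7344147-7344446 (plus strand). The capitals mark GAGGAA or its reverse complement TTCCTC.
Clec7a: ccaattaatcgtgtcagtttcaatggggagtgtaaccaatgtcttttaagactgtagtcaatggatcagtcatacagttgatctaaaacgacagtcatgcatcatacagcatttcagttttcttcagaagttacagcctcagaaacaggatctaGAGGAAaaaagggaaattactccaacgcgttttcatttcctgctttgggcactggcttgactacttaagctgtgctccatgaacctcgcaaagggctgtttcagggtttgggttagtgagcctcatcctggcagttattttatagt
Mmp12: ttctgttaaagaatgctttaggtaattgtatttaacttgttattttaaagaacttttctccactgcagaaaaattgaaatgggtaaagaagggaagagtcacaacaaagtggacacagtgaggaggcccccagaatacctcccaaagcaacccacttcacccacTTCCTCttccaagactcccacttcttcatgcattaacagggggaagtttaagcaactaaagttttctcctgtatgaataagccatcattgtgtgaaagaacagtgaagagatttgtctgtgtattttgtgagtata
Of 103 genes called higher with a promoter in the RefSeq table, 52 held GAGGAA on either strand (50.5%), against 30.4% of 15306 genes measured. TGACTCA, the site of AP-1, was in 9.71% and 5.31%, the E-box CACGTG in 9.71% and 9.66%, and CCAAT, the box bound by NF-Y, in 37.9% and 42.3%. None of these motifs contains another. The matches are letters in a window of 300 bases and were not tested for binding.

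**Figure D2:**
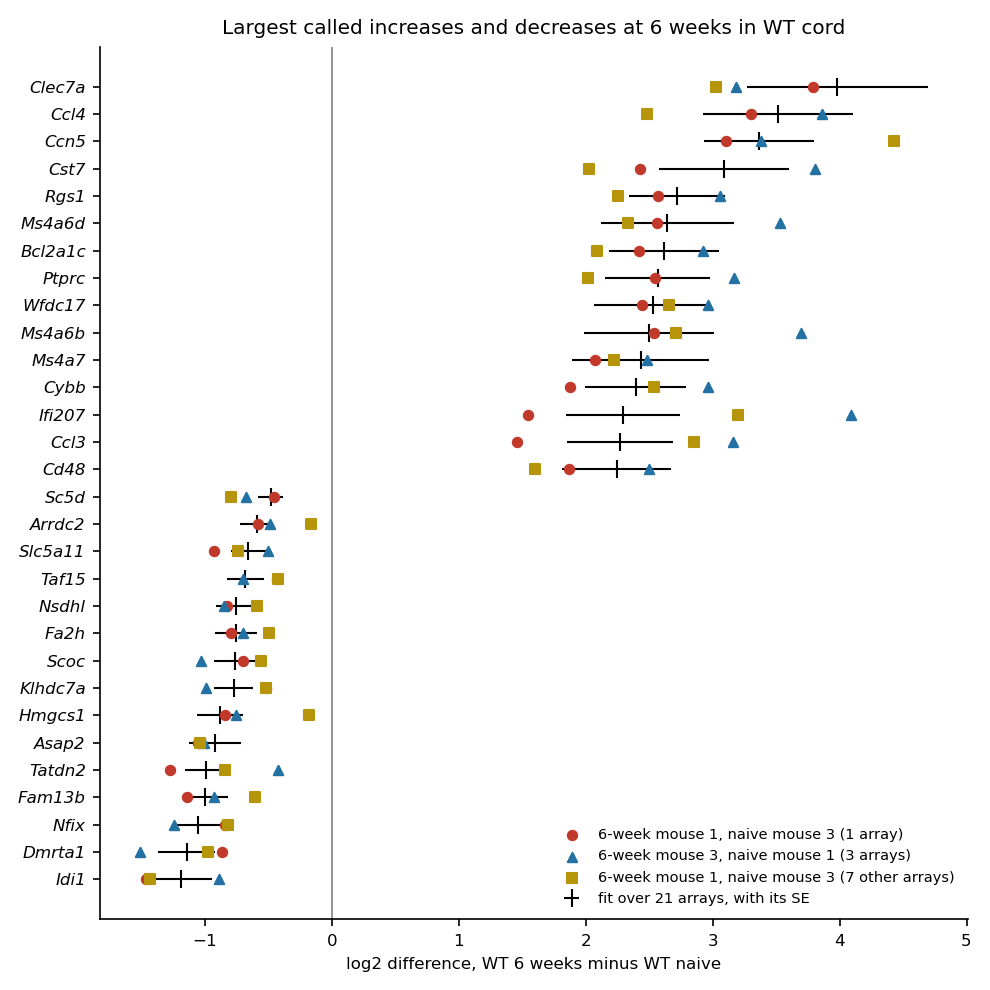
The 15 genes with the largest called increase and the 15 called lower at 6 weeks in WT cord, as log2 differences from naive WT cord (x axis). Coloured points are the direct array and the chains of 3 and 7 arrays with the dye effect taken out, and black ticks with lines are the fit with its SE. All coloured points lie on the same side of 0 as the fit.

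Receptors by which phagocytes sense debris, antibodies and microbes were among the called genes, several of them from 1 family. Of 15 genes of phagocyte signalling 5 were higher and none was lower (0 to 4 called with 1 mouse left out), with a median of 1.35 against −0.01 over all genes. Besides Clec7a these were Cd84 (2.01, SE 0.32), a receptor of the SLAM family, and the Fc receptor genes Fcer1g (1.63, SE 0.30), Fcgr1 (1.45, SE 0.27) and Fcgr4 (1.38, SE 0.27), which bind antibody or carry the signal. For Fcgr2b, the inhibitory Fc receptor, the probe standing for the gene had 1.51 (adjusted p = 0.419), but by probe 9 of 12 were called, with 1.93 to 2.58. Tyrobp and Trem2, the adaptor and the lipid-sensing receptor of microglia, had 0.93 (adjusted p = 0.0719) and 1.16 (adjusted p = 0.0888) and were not called by this probe, though 1 of 2 Trem2 probes was. Families were also counted by symbol, chosen after their values were seen. Of 9 SLAM receptor genes, which regulate contacts between leukocytes, 5 were higher. Cd48 had 1.87, 2.50 and 1.60 on the direct array and along the chains of 3 and 7 arrays (fit 2.24, SE 0.43, adjusted p = 0.0252), and Slamf9 (1.66), Ly9 (1.51) and Slamf8 (0.84) had smaller increases, beside Cd84. Of 16 Ms4a genes, membrane-spanning proteins of immune cells, 4 were higher, with 2.64 for Ms4a6d, 2.50 for Ms4a6b, 2.43 for Ms4a7 and 0.92 for Ms4a4b. The B cell member Ms4a1 had −0.10 (adjusted p = 0.937). Of 9 Toll-like receptor genes, sensors of microbial and damage products, Tlr7 (1.88, SE 0.34) and Tlr1 (1.52, SE 0.27) were higher, and all 9 had a value above 0 (median 1.00). Tlr2, the receptor for bacterial lipoproteins, had 1.44 by the probe standing for it (adjusted p = 0.0512), though by probe 8 of 10 were called. Cd300c2 (2.14) and Cd300a (1.40, with its other probe at −0.11) were higher among 9 Cd300 lipid receptors, and Clec4b1 (1.03) and Clec4a2 (0.93) among 9 Clec4 and Clec7 lectins. The anti-apoptotic Bcl2a1b and Bcl2a1c had 2.15 and 2.62, but these copies are near-identical and their probes may not tell them apart, which also holds for Ms4a6b and Ms4a6d.

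Of 19 genes of macrophages and other myeloid cells 5 were higher and none was lower (0 to 3 with 1 mouse left out), with a median of 1.01. Cybb, the catalytic subunit of the phagocyte NADPH oxidase, had 1.88, 2.96 and 2.54 on the direct array and along the chains (fit 2.39, SE 0.40, adjusted p = 0.0134), and its other probe had 1.02. The oxidase subunit Ncf4 (1.35) and the proton channel Hvcn1 (1.83), which keeps the oxidase running, were higher as well. Adgre1, an adhesion receptor that marks macrophages, had 2.06 (SE 0.46, adjusted p = 0.0498) and 0.21 by its other probe. The integrin chains Itgb2 (1.26) and Itgax (1.96) and the tetraspanin Cd53 (1.25) were also higher, whereas Itgam, which encodes CD11b, had 0.68 (SE 0.19, adjusted p = 0.131). Of 12 genes that mark resting microglia, 2 were higher (0 to 1 with 1 mouse left out) and the median was 0.38. They were Gpr34, a receptor for lysophosphatidylserine (1.17, SE 0.19), and P2ry13, a receptor for ADP (0.68, SE 0.15). P2ry12, the other ADP receptor of resting microglia, had 0.56 (adjusted p = 0.185), Cx3cr1, the fractalkine receptor, 0.28 (adjusted p = 0.731) and Tmem119 0.48 (adjusted p = 0.741). Tmem119 had −0.25, 1.5 and −0.88 on the direct array and the chains, so its sign differed between pairs of mice. The macrophage and microglia markers moved beside the other groups of immune genes, and their part in those increases was not tested.

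Of 29 chemokine and chemokine receptor genes 6 were higher and none was lower (0 to 6 with 1 mouse left out), with a median of 0.60. Ccl4, which attracts monocytes and T cells, had 3.30, 3.86 and 2.48 on the direct array and along the chains (fit 3.51, SE 0.59, adjusted p = 0.0142). Ccl3, its close relative, had 1.46, 3.16 and 2.85 (fit 2.27, SE 0.42, adjusted p = 0.0216), with the direct array lowest. Ccl5 had 1.89 (SE 0.38) and Ccl6 1.56 (SE 0.33). Cxcl16, a membrane-bound chemokine of phagocytes (1.76, SE 0.31), and its receptor Cxcr6 of T cells (1.67, SE 0.22, adjusted p = 0.00448) were both higher. Cxcl10, the attractant induced by interferon, had 2.40 but an adjusted p of 0.0991, and Ccl2, the main monocyte attractant, 1.67 (adjusted p = 0.0852). By probe, 1 of 10 was called for Ccl2. Of 28 genes of innate receptors and cytokines 4 were higher (0 to 4 with 1 mouse left out; median 0.42): Tlr7, Tlr1, the cytokine Il1b (1.35, SE 0.25, with 6 of its 10 probes called) and Casp1, the protease that matures it (1.22, SE 0.23). Casp12, a relative of Casp1, had 1.71, 2.61 and 1.11 (fit 2.04, SE 0.36, adjusted p = 0.0189). These caspases were the 2 genes called among 21 of cell death (median 0.29). Tnf had 0.24 and Il6 −0.12, with adjusted p of 0.865 and 0.966. Tnfaip3, which restrains NF-κB (0.97, SE 0.16), and Birc3, an inhibitor of apoptosis (1.18, SE 0.22), were higher.

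Complement and antigen presentation rose in part. Of 12 complement genes 3 were higher (0 to 4 with 1 mouse left out; median 0.80). C1qb, a chain of C1q that tags debris, had 1.26, 1.75 and 0.93 on the direct array and along the chains (fit 1.45, SE 0.27, adjusted p = 0.0216), C3ar1, the receptor for C3a, had 1.69 (SE 0.32) and Serping1, the inhibitor of C1, had 1.35 (SE 0.29). Of 13 genes of MHC class II presentation 2 were higher (0 to 2 with 1 mouse left out; median 0.87), the costimulator Cd86 (1.07, SE 0.15, adjusted p = 0.00771) and H2-Oa (0.97, SE 0.15, adjusted p = 0.0086), which modulates peptide loading. H2-Aa, a chain of the class II molecule itself, had 2.07 with an adjusted p of 0.0646. By any probe 4 of the 13 were called, with H2-Ab1 (1.52 and 1.51) and H2-DMb2 (0.83) higher by other probes. Of 23 genes of MHC class I and interferon response 1 was higher, Oas1a (1.13, SE 0.23), though 16 of them had an unadjusted p under 0.05 and a positive value (median 0.72). Ifi207, an interferon-inducible DNA sensor, had 1.54, 4.09 and 3.20 (fit 2.29, SE 0.45), the widest range among the leading genes. Of 21 lymphocyte genes 1 was higher, Cd3d of the T cell receptor (0.79, SE 0.17, adjusted p = 0.0394; 0 with any 1 mouse left out), while Cd3e had −0.27. Lag3 (0.85) and Pdcd1 (1.32), inhibitory receptors of T cells, were higher as well. Of 11 neutrophil genes none was called, and the granule genes S100a8 and S100a9 both had −1.23. Their median of −0.50 was 0.28 when the 5 arrays of WT mice alone were fitted, so it has no settled sign.

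Genes that handle lipid and lysosomal cargo in phagocytes followed. Of 22 such genes 3 were higher (0 to 3 with 1 mouse left out; median 0.39). They were Cst7, Ctss, a cathepsin of antigen processing (1.26, SE 0.27), and Abca1, which exports cholesterol from cells (1.24, 1.71 and 1.05 on the direct array and along the chains; fit 1.38, SE 0.28, adjusted p = 0.0339). Apoc4, an apolipoprotein next to Apoe, had 1.70 (SE 0.31, adjusted p = 0.0217), and Olr1, a receptor for oxidised lipoprotein, had 1.59 (SE 0.32). Ch25h, which makes an oxysterol from cholesterol, had 3.55, 5.0 and 3.35 and a fitted 3.60, but its SE of 0.92 left it at an adjusted p of 0.0891. Lpl, the lipoprotein lipase, had 1.70 (adjusted p = 0.0684) and Apoe 0.34 (adjusted p = 0.693).

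Besides phagocyte genes, several genes of matrix and mesenchymal cells were higher. Ccn5, a secreted matricellular protein, had 3.10, 3.38 and 4.43 on the direct array and along the chains (fit 3.37, SE 0.44, adjusted p = 0.00448), the third largest increase called. Postn, which encodes periostin of fibrotic scars, had 1.76, 1.69 and 1.28 (fit 1.82, SE 0.26, adjusted p = 0.0071), but its other probe had −0.41, so the 2 probes disagree. Mamdc2, a secreted protein of the matrix, had 0.97, 1.76 and 1.11 (fit 1.46, SE 0.18, adjusted p = 0.00396). Colec12, a scavenger receptor (1.61), Hpse, the heparanase that cuts heparan sulfate (1.04), and the mesenchymal transcription factors Snai2 (0.74) and Prrx2 (0.77) were higher too. As a list, however, 1 of 23 genes of scar matrix was called (median 0.15), and 0 of 18 collagens (median 0.04) and 0 of 20 genes of meningeal fibroblasts (median 0.19). At an unadjusted p under 0.05, 4, 0 and 0 genes of these lists were higher and none was lower, against 1158 and 852 of all 19087 genes.

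The 15 genes that fell included 4 of 22 genes of cholesterol synthesis and its control (0 to 3 called with 1 mouse left out). None of these 22 was higher. By any probe 5 of the 22 were called, with Cyp51 lower by another probe (−0.88, adjusted p = 0.0339). Idi1, which makes the isoprenoid building block dimethylallyl diphosphate, had −1.47 on the direct array, −0.89 along the chain of 3 arrays and −1.43 along the chain of 7. It fell by 1.19 on the log2 scale in the fit (SE 0.24, adjusted p = 0.0339), and both its probes were called. Hmgcs1, which makes HMG-CoA at the entry of the pathway, had −0.85, −0.76 and −0.18 (fit −0.88, SE 0.18, adjusted p = 0.0343, both probes called), with the long chain closest to 0. Nsdhl (−0.75, SE 0.16, adjusted p = 0.0378) and Sc5d (−0.48, SE 0.10, adjusted p = 0.0371), enzymes of the late sterol steps, also fell. The direct array and both chains were below 0 for all 4 genes. The median of the list was −0.42, and 21 of its 22 genes had a value below 0, 14 of them with an unadjusted p under 0.05. The sensor Insig1 had −0.85 (adjusted p = 0.0531) and Dhcr7, the last enzyme of the pathway, −0.80 (adjusted p = 0.0955). The exception was Srebf1, a regulator of fatty acid synthesis, with 0.40 (adjusted p = 0.338). Over the alternatives the median ran from −0.68 to −0.37.

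Promoters of Idi1 and Hmgcs1, the pair with the largest fall in this list, are shown because they hold several CCAAT boxes, the element that NF-Y binds beside the sterol response element of many sterol genes. They lie at chr13:8885356-8885655 and chr13:119690101-119690400, both on the plus strand of GRCm38.p6 in RefSeq, and the capitals mark CCAAT or its reverse complement ATTGG.
Idi1: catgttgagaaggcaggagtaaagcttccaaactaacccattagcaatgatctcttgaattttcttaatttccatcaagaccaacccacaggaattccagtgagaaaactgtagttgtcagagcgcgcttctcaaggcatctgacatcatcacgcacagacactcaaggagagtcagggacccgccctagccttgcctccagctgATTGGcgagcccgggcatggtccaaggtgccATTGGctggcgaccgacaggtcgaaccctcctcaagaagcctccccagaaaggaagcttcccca
Hmgcs1: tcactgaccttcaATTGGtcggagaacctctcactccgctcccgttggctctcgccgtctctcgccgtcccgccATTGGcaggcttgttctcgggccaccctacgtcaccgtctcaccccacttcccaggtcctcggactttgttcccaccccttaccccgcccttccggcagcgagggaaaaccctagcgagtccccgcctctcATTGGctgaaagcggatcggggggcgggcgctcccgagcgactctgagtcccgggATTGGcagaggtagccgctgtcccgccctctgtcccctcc
Idi1 has 2 and Hmgcs1 has 4 such matches in 300 bases. Of 17 genes of the list with a promoter in the table, 15 held CCAAT on either strand (88.2%), against 42.3% of all 15306 genes measured and 9 of 12 genes called lower (75%). GAGGAA was in 11.8% of the same 17 promoters. The search for CCAAT was added after the values were seen, and a match was not tested for binding.

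Of 19 myelin genes 1 fell, Fa2h, which makes the hydroxylated fatty acids of myelin lipids (−0.79, −0.70 and −0.49 on the direct array and along the chains; fit −0.76, SE 0.16, adjusted p = 0.0441), and its call was lost with any 1 mouse left out. The median of the list was −0.25 and 17 of its 19 genes lay below 0. Mobp had −0.55 (adjusted p = 0.097) and Cnp −0.25 (adjusted p = 0.616), while Mbp, the main protein of compact myelin, had 0.08 (adjusted p = 0.954). Among the other genes that fell were the transcription factors Nfix (−1.06, SE 0.20), known for its part in glial and neural stem cells, and Dmrta1 (−1.14, SE 0.22). Fam13b (−1.0), Asap2, a regulator of Arf GTPases (−0.92), and Slc5a11, an inositol transporter (−0.66), fell as well. Tatdn2, a putative nuclease, had −1.27, −0.42 and −0.84 (fit −0.99, SE 0.17, adjusted p = 0.0164), the smallest p among the 15.

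Lists of neurons held few calls at this precision, at which 0.786% of all genes were called. Of 19 general neuron genes, 21 of inhibitory neurons and 22 of transmitter release, 0 were called in either direction, and their medians were −0.17, −0.13 and −0.13. At an unadjusted p under 0.05, 7, 4 and 5 genes of these lists were lower, and 0, 1 and 0 higher. Over all 19087 genes, 852 were lower and 1158 higher at this threshold. In data simulated from the fitted model with 200 changed probes, the fit recovered 60.4% of 2-fold and 15.6% of 1.5-fold changes. Most changes of 1.5-fold would thus be missed even where that model holds. Gria3, an AMPA receptor subunit, was called higher (1.06, SE 0.23, adjusted p = 0.0477), but another of its 3 probes had −0.88. Of 21 genes of reactive astrocytes 0 were called by the probe standing for a gene, although 12 had an unadjusted p under 0.05 and a positive value and the median was 0.81. Ptx3, a pentraxin of inflammation, had 1.95 (adjusted p = 0.0571) with 1 probe of 2 called, whereas Gfap, the filament of astrocytes, had 0.48 (adjusted p = 0.712). Of 14 genes of ependymal cells and motile cilia 1 was higher, Meig1 (1.11, SE 0.22), and Cfap161, a ciliary protein outside that list, had 0.78 (SE 0.17). Of 22 proliferation genes 0 were called and the median was 0.35. For Mki67, expressed in cycling cells, the value was 0.35 (SE 0.41, adjusted p = 0.860). Of 14 skeletal muscle, 5 erythrocyte and 9 adipocyte genes, cells that a dissection can carry over, 0 were called. With 0.786% of all genes called, lists this short cannot show whether such cells were carried over.

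**Figure D3:**
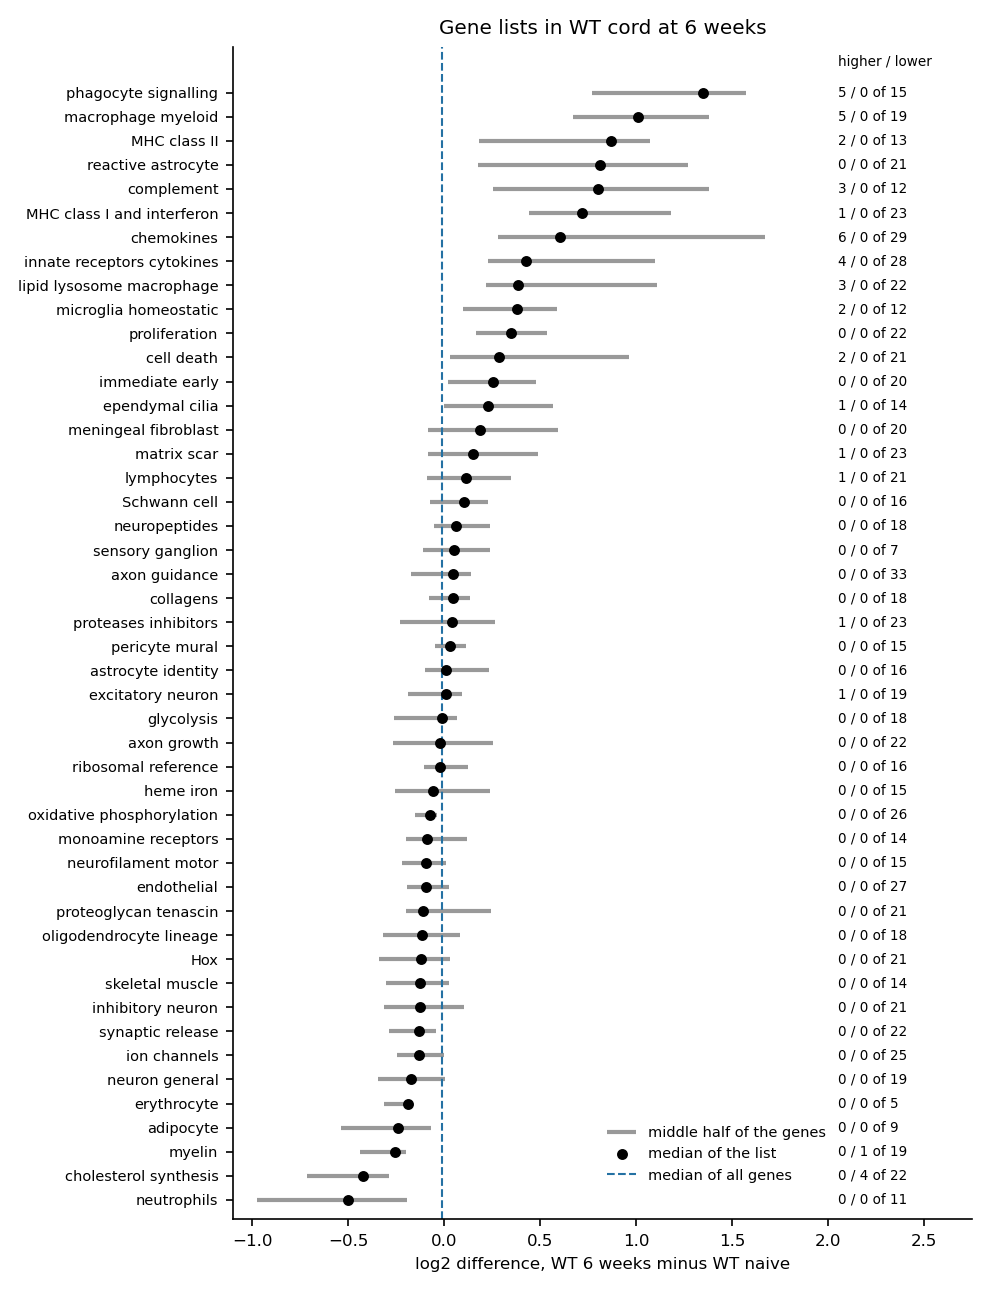
Log2 differences between WT cords at 6 weeks and naive WT cords for 47 gene lists (x axis), with points for the median and lines over the quartiles of the genes of a list. Numbers give genes called higher and lower of those measured. Phagocyte signalling has the highest median (1.35), and cholesterol synthesis (−0.42) has the most genes called lower (4 of 22).

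The study named 13 genes that it chose on these samples, Itgam, Cnp and Mki67 above among them. They were chosen for a difference between the genotypes, not for a change from naive WT cords. By quantitative PCR the study reported more Cxcr4 RNA in WT cords at the later injury times than in naive cords. By staining it counted more cells with the Itgam protein at the last time. Neither gene was called here, which does not show that they were unchanged, given the limited precision of the fit. Of the 13, Cd200r1, an inhibitory receptor of myeloid cells, was higher at 6 weeks in WT cords (1.49, 2.31 and 1.52 on the direct array and along the chains; fit 1.75, SE 0.36, adjusted p = 0.0339). Icam1, an adhesion molecule for leukocytes, had 1.63 by the probe that stands for it (adjusted p = 0.0698); by probe, 5 of 11 passed the test. Tlr4, the receptor for lipopolysaccharide, had 1.06 (SE 0.32, adjusted p = 0.168) and 0 of 11 probes called. Cxcr4 had 0.60 (adjusted p = 0.317) and its ligand Cxcl12 −0.17 (adjusted p = 0.863). Their other probes had 1.15 (adjusted p = 0.0549) for Cxcr4 and 0.91 (adjusted p = 0.207) for Cxcl12, so the sign of Cxcl12 depends on the probe. Lingo1, an inhibitor of oligodendrocyte differentiation, had −0.43 (adjusted p = 0.417). The transcription factors Sox17, Tcf7l2 and Foxc2 had 0.15, 0.11 and 1.06, with adjusted p of 0.933, 0.862 and 0.742. Foxc2 had 2.55 on the direct array, 0.61 along the chain of 3 arrays and 2.97 along the chain of 7, and an SE of 0.83. The value of Pmp2, which encodes a lipid-binding protein of peripheral myelin, was 0.13 (SE 0.43).

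Whether the state at 6 weeks differed from earlier times in WT mice was tested directly, since the comparisons of 3 days and 3 weeks with naive share the naive mice. At 3 days 822 probes (1.89%) and at 3 weeks 447 probes (1.03%) were called against naive. By gene, 328 were higher (1.72%) and 28 lower (0.147%) at 3 days, and 212 were higher (1.11%) and 13 lower (0.0681%) at 3 weeks. Clec7a had 2.41 at 3 days, 4.62 at 3 weeks and 3.98 at 6 weeks, each against naive. In the same order Ccl4 had 2.11, 3.92 and 3.51, and Ptprc 1.96, 2.57 and 2.57. For Mmp12 the values were 0.43, 1.30 and 2.20, the highest being that of 6 weeks. Between 6 weeks and 3 weeks 0 probes were called by limma, and 1450 had an unadjusted p under 0.05. Between 6 weeks and 3 days 48 probes were called (0.111%), and by gene 14 were higher and 14 lower at 6 weeks (0.0733% each). The count of 48 was between 0 and 19 with 1 mouse left out, 0 without mouse 2 of 6 weeks among them.

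Higher at 6 weeks than at 3 days were Apoc4 (difference 1.73, adjusted p = 0.0491), Cxcr6 (1.47, adjusted p = 0.0271), Plac9a (1.38, adjusted p = 0.0279), Mamdc2 (1.38, adjusted p = 0.0158) and Cd3d (0.93, adjusted p = 0.0491). At 3 days these genes had −0.03, 0.20, −0.15, 0.08 and −0.14 against naive, so their increase was not detectable then. Ucma, a matrix protein of cartilage, had a difference second to that of Apoc4 (1.56, adjusted p = 0.0271), with 0.84 against naive at 6 weeks (adjusted p = 0.115). Ecrg4, a secreted peptide precursor of choroid plexus and ependyma (1.13, adjusted p = 0.0154), and Cfap161 (1.12, adjusted p = 0.0271) were also higher. Mmp12 had 1.78 by the same test with an adjusted p of 0.0533. Lower at 6 weeks than at 3 days was Colec10, a collectin of complement activation, with a difference of −2.17 (adjusted p = 0.0279). Its values against naive cords were 2.98 (3 days), 3.61 (3 weeks) and 0.82 (6 weeks). Tatdn2 (−1.36, adjusted p = 0.0154) and Sc5d (−0.55, adjusted p = 0.0491) were lower at 6 weeks both than at 3 days and than in naive cords. Idi1 and Hmgcs1 had −0.05 and −0.03 against naive at 3 days and −1.05 and −0.69 at 3 weeks, none of them called, and their differences between 6 weeks and 3 days each had an adjusted p of 0.0752. By time, the cholesterol list had medians of −0.03 (3 days), −0.33 (3 weeks) and −0.42 (6 weeks). Of 22 proliferation genes, 11 were called higher at 3 days (median 1.19), 0 at 3 weeks (0.63) and 0 at 6 weeks (0.35), but the difference between 6 weeks and 3 days was called for 0 of them. At 3 days, 3 weeks and 6 weeks the medians were 1.32, 1.52 and 1.35 for phagocyte signalling and 0.91, 1.43 and 1.01 for macrophages.

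**Figure D4:**
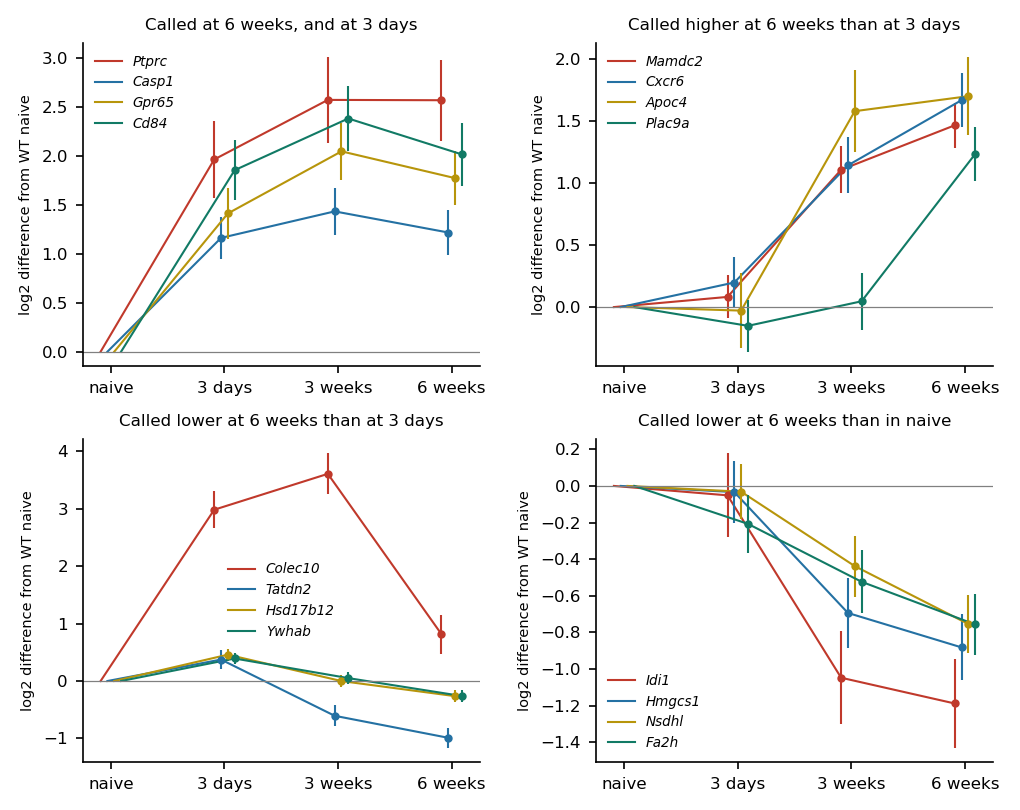
Fitted log2 difference from naive WT cord (y axis, with SE) over the injury times of 3 days, 3 weeks and 6 weeks (x axis) for 16 genes in WT mice, with naive at 0. Ptprc, Casp1, Gpr65 and Cd84 were called at 3 days and at 6 weeks, Mamdc2, Cxcr6, Apoc4 and Plac9a were near 0 at 3 days, Colec10 was highest at 3 weeks, and Idi1, Hmgcs1, Nsdhl and Fa2h were lowest at 6 weeks.

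The same comparison in IκBα-dn mice, 6 weeks against naive, called 11141 probes (25.7%) with the same number of mice, though partly on other arrays and slides. Of the 135 genes higher in WT cords, 133 were also called higher in IκBα-dn cords (against 12.9% of all genes), and of the 15 lower genes 7 were also called lower (against 13.3%). The 2 comparisons share arrays and their error through the loop, which can raise these overlaps. The shares of all genes are therefore no baseline for them, and the overlaps add no evidence. The difference between the responses (IκBα-dn minus WT) was tested in the same fit. It was called for 3878 probes (8.94%), and for 2248 with 1 dye term per slide. At 6 weeks the arrays within IκBα-dn mice lay on another slide than those within WT mice. All arrays of both genotypes lay on 1 slide at 6 weeks and on another for naive cords. Slide is thus tied in part to this difference. The difference was called for 33 of the 150 WT genes, against 9.31% of all genes. Of the 135 genes higher in WT cords, 26 had a response called higher in IκBα-dn cords (against 3.18% of all genes) and 1, Eid1, a response called lower (against 6.13%). The difference holds, with opposite sign, the WT estimate by which these genes were called. The shares of all genes are therefore no baseline for these counts either. For the phagocyte genes that lead the WT response the difference was not called, though their values were higher in IκBα-dn cords. Clec7a had 4.67 in IκBα-dn and 3.98 in WT cords, Ccl4 3.98 and 3.51, Mmp12 2.60 and 2.20, and Ptprc 3.77 and 2.57. The adjusted p of the difference ran from 0.138 to 0.792 for these genes. The macrophage list had medians of 1.59 in IκBα-dn and 1.01 in WT cords, with the difference called for 1 of 19 genes. For phagocyte signalling the medians were 1.44 and 1.35 (0 of 15 called). Larger in IκBα-dn cords were Zfp185, an actin-binding protein (2.70 against 1.10 in WT, difference 1.60, adjusted p = 0.000377), Snai2 (2.10 against 0.74, difference 1.37, adjusted p = 0.00036), Postn (3.15 against 1.82, difference 1.33, adjusted p = 0.00948) and Mamdc2 (2.72 against 1.46, difference 1.26, adjusted p = 0.00149). Casp12 (difference 1.48) and Fcrl1, an Fc receptor-like protein (1.04), differed in the same way. The values of Postn are those of the probe standing for it, and its other probe disagrees in WT cords.

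The response differed between genotypes in some lists with at most 1 call in WT cords, and in others, such as those of reactive astrocytes (0 of 21), proliferation (0 of 22) and lymphocytes (0 of 21), it was called for no gene. The median of scar matrix genes was 1.11 in IκBα-dn and 0.15 in WT cords, with the difference called for 12 of 23, all larger in IκBα-dn cords. For genes of meningeal fibroblasts the medians were 1.13 and 0.19 (5 of 20 called), and for endothelial genes 0.36 and −0.10 (8 of 27 called). Genes of inhibitory neurons had −0.77 in IκBα-dn and −0.13 in WT cords, with the response lower in IκBα-dn cords for 10 of 21. Slc6a5, the glycine transporter of inhibitory neurons, had −2.25 and −0.21 (difference −2.04, adjusted p = 0.000376). The cholesterol list had medians of −0.51 in IκBα-dn and −0.42 in WT cords, and Nsdhl fell further in IκBα-dn cords (−1.68 against −0.75 in WT, difference −0.92, adjusted p = 0.00441), whereas the fall of Tatdn2 was smaller there (difference 0.98, adjusted p = 0.00503; −0.99 in WT). Without the 3 arrays of both genotypes at 6 weeks the 3878 probes became 820.

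**Figure D5:**
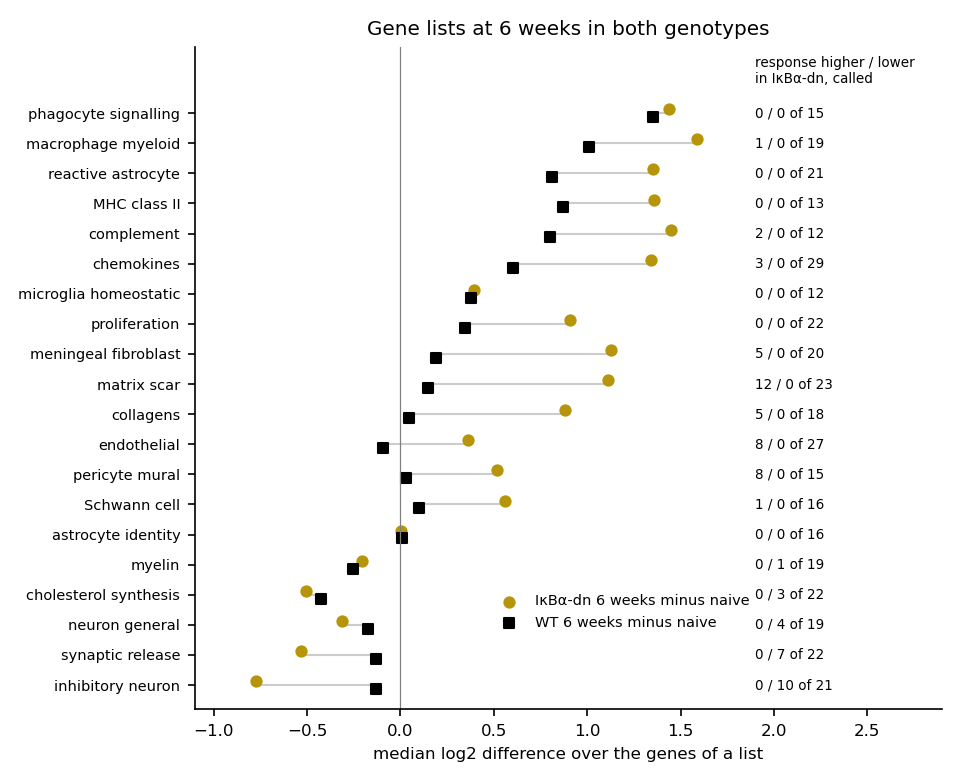
Median log2 difference from naive at 6 weeks over the genes of 20 lists (x axis), with circles for IκBα-dn and squares for WT cords. Numbers give genes whose response was called higher or lower in IκBα-dn than in WT cords. The uppermost 6 lists lie at 0.60 to 1.35 in WT cords, and scar matrix (1.11 against 0.15) and inhibitory neurons (−0.77 against −0.13) lie far apart.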

How the data were processed

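The authors deposited log2 ratios of Cy5 over Cy3 for 22 two-colour arrays, 1 value per probe. Per their methods, lowess and quantile normalization was done in limma; the labels do not state the direction of the ratio, and 28 of 31 microglia and macrophage genes were above 0 on the array of an injured (Cy5) against a naive (Cy3) WT cord. Array medians ran from −0.08 to 0.05 and no value was missing, and no spot filter could be seen. With no intensities here, the number of arrays limits the precision. The array whose labels name 3 days and 3 weeks for 1 mouse was left out. The rest were fitted in limma 3.58.1 (R 4.3.3) with 8 groups and a dye term. A share of 0.45 of the variance was assigned to mice, which sets the correlation between arrays sharing a mouse. P-values were adjusted over all 43379 probes. The labels give mice no litter or cage. The p-values rest on 1 spread per probe, pooled over all 8 groups with 13 residual degrees of freedom. This spread holds array error as well as differences between mice. There were 3 mice a group except 2 at WT 3 weeks. Gene symbols came from the platform annotation (56 probes had several and 9670 none), and 33511 probes matched RefSeq.

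The groups, lists and tests were chosen with earlier results of these data known. Named were the 15 genes with the largest called change in each direction, the first 3 and up to 4 with the smallest p of each list, genes the study named, and the 5 largest called differences each way in the tests of time and genotype; other genes named, families included, were chosen after their values were seen. The fit was tested on data simulated from the fitted model itself. Alternatives changed the correlation, the dye term, blocks, arrays, mice, scaling, probes and threshold. Figures were drawn in matplotlib 3.10.9 (Python 3.11.15).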

Additional observations from a re-analysis of the deposited data

Results flagged for a closer look

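The response at 6 weeks differed between the genotypes for some of the genes named or plotted above or called in WT cords, by the test of the difference itself (IκBα-dn minus WT, log2, adjusted p under 0.05 in limma). It was larger in IκBα-dn cords for Zfp185 (1.6), Casp12 (1.48), Colec12 (1.44), Snai2 (1.37), Postn (1.33), Cxcl12 (1.3), Mamdc2 (1.26), Fcrl1 (1.04), Birc3 (1.04), Gria3 (1.04), Clec4b1 (0.85), Prrx2 (0.842), Tcf7l2 (0.707) and Ecrg4 (0.544). Of these, Cxcl12 and Tcf7l2 were not called in WT cords. Postn, Gria3 and Cxcl12 had probes of opposite sign in WT cords, and the differences given are those of the probe standing for each gene. For the genes that fell in WT cords, the difference was above 0 for Tatdn2 (0.985), Klhdc7a (0.799), Taf15 (0.762) and Arrdc2 (0.597). It was below 0 for Slc6a5 (−2.04), Lingo1 (−0.939), Insig1 (−0.932), Nsdhl (−0.924), Ywhab (−0.755) and Eid1 (−0.672), of which Nsdhl was called lower and Eid1 higher in WT cords and the others were not called there.

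In WT cords the difference from naive changed between 3 days and 6 weeks (6 weeks minus 3 days, log2, adjusted p under 0.05 in limma). It was above 0 for Apoc4 (1.73), Ucma (1.56), Cxcr6 (1.47), Mamdc2 (1.38), Plac9a (1.38), Ecrg4 (1.13), Cfap161 (1.12) and Cd3d (0.93), and below 0 for Colec10 (−2.17), Tatdn2 (−1.36), Hsd17b12 (−0.722), Ywhab (−0.654) and Sc5d (−0.552). Groups of 2 or 3 mice were too small for a test of single outlying mice.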

How the results depend on the processing

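Counts of probes are given in the order higher and lower at 6 weeks than in naive WT cords, then called between 6 weeks and 3 days, between 6 weeks and 3 weeks, and between the responses of IκBα-dn and WT cords. Main values were 274, 39, 48, 0 and 3878. With arrays taken as independent they were 319, 48, 154, 2 and 6630, without a dye term 128, 3, 9, 1 and 1966, and with a dye term per slide 827, 267, 6, 0 and 2248. With the replicate number as a block they were 30, 3, 0, 0 and 3686; the numbers only name mice, and since arrays give ratios between mice, no deviations of single mice could be correlated to check a pairing. With the array of conflicting labels kept as 3 days they were 328, 13, 3, 0 and 4311, and kept as 3 weeks 490, 60, 108, 2 and 4242. Arrays centred on the median gave 380, 33, 44, 0 and 4222, and also scaled to 1 spread 185, 6, 2, 2 and 3122, so that 96.9% of called probes were higher, against 87.5%. Without the direct array they were 46, 2, 11, 0 and 3092, without the 3 arrays of both genotypes at 6 weeks 0, 0, 0, 0 and 820, and with the 5 arrays of WT mice 108, 0, 0 and 0, which cannot give the genotype test. Leaving out 1 mouse gave 6 to 222, 0 to 15, 0 to 19, 0 to 1 and 1670 to 4676. The mean of the probes of a gene gave 175, 22, 32, 2 and 1866, the probes with the larger SD 326, 23, 7, 2 and 2977, and a robust prior 258, 36, 29, 0 and 3801. An adjusted p under 1% gave 26, 1, 0, 0 and 1543, a stricter rule of 0.1% with a 2-fold change 0, 0, 0, 0 and 247, and a moderated F with 1% and 2-fold 424, 7, 138, 16 and 871. The cause of these shifts was not tested. The sign of the 150 genes did not change, save that Gria3 had −0.059 as the mean of its probes and 2 genes were not among the probes with the larger SD. In simulated data 92.4% of 3-fold and 98% of 4-fold changes were recovered, and 6.33% of calls were false. These data were drawn from the fitted model, with no effect of slide or replicate number. They cannot show where that model fails, and 6.33% is no error rate of the real calls.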

Other observations

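On the array left out for its conflicting labels, a WT cord of 6 weeks (Cy5) against an earlier WT cord (Cy3), the genes called higher at 6 weeks had a median log2 ratio of 0.06, those called lower −0.00158 and all genes −0.00642. For the same genes called higher, the fit without this array gave medians of 0.41 for 6 weeks minus 3 days and −0.0259 for 6 weeks minus 3 weeks.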
